A study of Mus musculus with 9 samples.

Results

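The desmosome genes are 10 mouse genes for the proteins of the desmosome, chosen by gene symbol. They are the desmogleins Dsg2 and Dsg3, the desmocollins Dsc2 and Dsc3, the armadillo proteins Jup (plakoglobin), Pkp1, Pkp2 and Pkp3 (plakophilins), the plakin Dsp (desmoplakin) and the tetraspan membrane protein Perp. All 10 were measured, each by 1 array row, among 19938 genes. RNA was measured on Affymetrix whole-transcript arrays in mammary epithelial cell preparations from wild-type C3H female mice aged 8 to 9 weeks, with 3 arrays in each of 3 groups. Mock sorted cells were released with collagenase, digested with trypsin and passed through a mock fluorescence-activated cell sort. Trypsinized cells had collagenase and trypsin but no mock sort. Untrypsinized cells had collagenase alone, so all 3 groups share the collagenase step. The arrays within a group are labelled biological replicates, with no animals or pools named, so the tests cover the spread among these samples alone, which may be technical.

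A desmosome is a plaque-like junction that ties the keratin filaments of neighbouring epithelial cells together. Desmogleins and desmocollins are calcium-dependent cadherins that bind across the gap between cells. Inside the cell their tails hold plakoglobin and the plakophilins, and these hold desmoplakin, which grips the keratin filaments. In the mammary gland the inner luminal and the outer basal (myoepithelial) layer are both joined by desmosomes. Trypsin cuts proteins after lysine and arginine and is used to free single cells from such junctions. The arrays measured RNA and not the junction proteins themselves.

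The 250 bases before the annotated start are shown for Dsp and Jup, the only 2 of the 10 members whose windows are printed here. In the values as deposited both genes were higher in the trypsinized and mock sorted than in the untrypsinized arrays. Their Pearson r over the 9 arrays was 0.95, but -0.01 after the group means were removed. The sequences come from RefSeq, build GRCm38.p6, read 5′ to 3′ on the gene's strand, at chr13:38151044-38151293 (plus strand) for Dsp and chr11:100397791-100398040 (minus strand) for Jup. Capitals mark the GC box, GGGCGG or its reverse complement CCGCCC.
Dsp: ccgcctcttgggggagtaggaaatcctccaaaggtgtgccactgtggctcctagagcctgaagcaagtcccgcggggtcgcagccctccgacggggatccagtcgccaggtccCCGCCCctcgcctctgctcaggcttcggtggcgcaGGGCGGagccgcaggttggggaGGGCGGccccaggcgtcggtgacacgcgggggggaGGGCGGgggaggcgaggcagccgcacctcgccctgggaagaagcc
Jup: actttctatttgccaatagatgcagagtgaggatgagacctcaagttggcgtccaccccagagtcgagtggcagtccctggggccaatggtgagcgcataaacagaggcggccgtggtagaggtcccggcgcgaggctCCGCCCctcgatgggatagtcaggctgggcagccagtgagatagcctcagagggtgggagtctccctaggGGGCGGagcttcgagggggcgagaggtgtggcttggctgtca
The Dsp window held 4 GC boxes, whose first bases lie 137, 102, 80 and 45 bases before the start. The Jup window held 2, at 112 and 42 bases before the start. A GC box is common, present in 32.7% of 32851 RefSeq windows of the same length. Searched on both strands, neither window held the E-box CACCTG, the Grainyhead core AACCNGTT or the AP-1 core TGANTCA. Those 3 motifs occur in 17.2%, 1.79% and 6.75% of all windows. These letters describe the windows and are not evidence of binding.

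Array median intensities were 345 to 408 over 35512 rows, and precision is limited by having 3 arrays a group. All 14 measured luminal and all 13 basal markers had a mean over the 9 arrays above a log2 intensity of 7.85. This is the 90th percentile of 1027 olfactory receptor genes, which belong to sensory neurons of the nose. Markers of other cells were present too. All 10 endothelial, all 10 fibroblast and 10 of 11 lymphocyte markers also passed that level in their means. So did 9 of 10 myeloid, 8 of 10 muscle, 7 of 8 adipocyte and 4 of 5 Schwann cell markers. Passing this level therefore cannot show that the cells were mainly epithelial. The trypsinized and mock sorted arrays numbered 1 stood apart, with a median log2 intensity of the lymphocyte markers of 10.27 on mock sorted and 10.61 on trypsinized array 1, against 8.17 to 9.13 on the other 7 arrays. The calls among desmosome genes, the Dsc3 values and the lymphocyte counts are given with and without those 2 arrays. Levels below are linear intensities unless called log2. Changes are differences in log2(intensity + 1) with their standard error (SE), from limma, and adjusted p is after Benjamini-Hochberg over the 19938 genes. A gene is said to rise or fall where the adjusted p is at most 0.05.

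The comparison of trypsinized with untrypsinized cells, which the submitters' design names, asked what the trypsin digestion leaves in the RNA. The cadherins Dsg2 and Dsc2, the armadillo proteins Jup, Pkp1 and Pkp3, and Dsp rose, by 1.12-fold to 1.34-fold, and no member fell. That is 6 of 10 members, where 13.9% of all genes tested rose and 11.5% fell. None of the 10 passed the design's minimum of 1.5-fold as well, which 1.46% of all genes passed. The median change of the 10 members was 0.26, against 0.04 over all genes. Pkp2, Perp, Dsg3 and Dsc3 did not pass the test. In such bulk samples, a larger share of cells of a type and more RNA per cell cannot be told apart. The same holds for fewer cells and less RNA per cell.

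Desmoplakin, Dsp, had the largest change among the 6. Its intensity was 3634, 3711 and 3568 on the mock sorted arrays, 3526, 3391 and 3419 on the trypsinized arrays, and 2576, 2599.5 and 2519 on the untrypsinized arrays. The untrypsinized arrays were the 3 lowest, and the 3 groups did not overlap. Dsp rose by 0.43 (SE 0.03, adjusted p = 0.000332) in trypsinized over untrypsinized cells, a 1.34-fold change. In mock sorted over untrypsinized cells it rose by 0.50 (SE 0.03, adjusted p = 1.95e-05), a 1.42-fold change. The difference between mock sorted and trypsinized cells, 0.08 (95% confidence interval -0.00 to 0.16, adjusted p = 0.296), did not pass the test although each mock sorted array was above each trypsinized one.

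**Figure D1:**
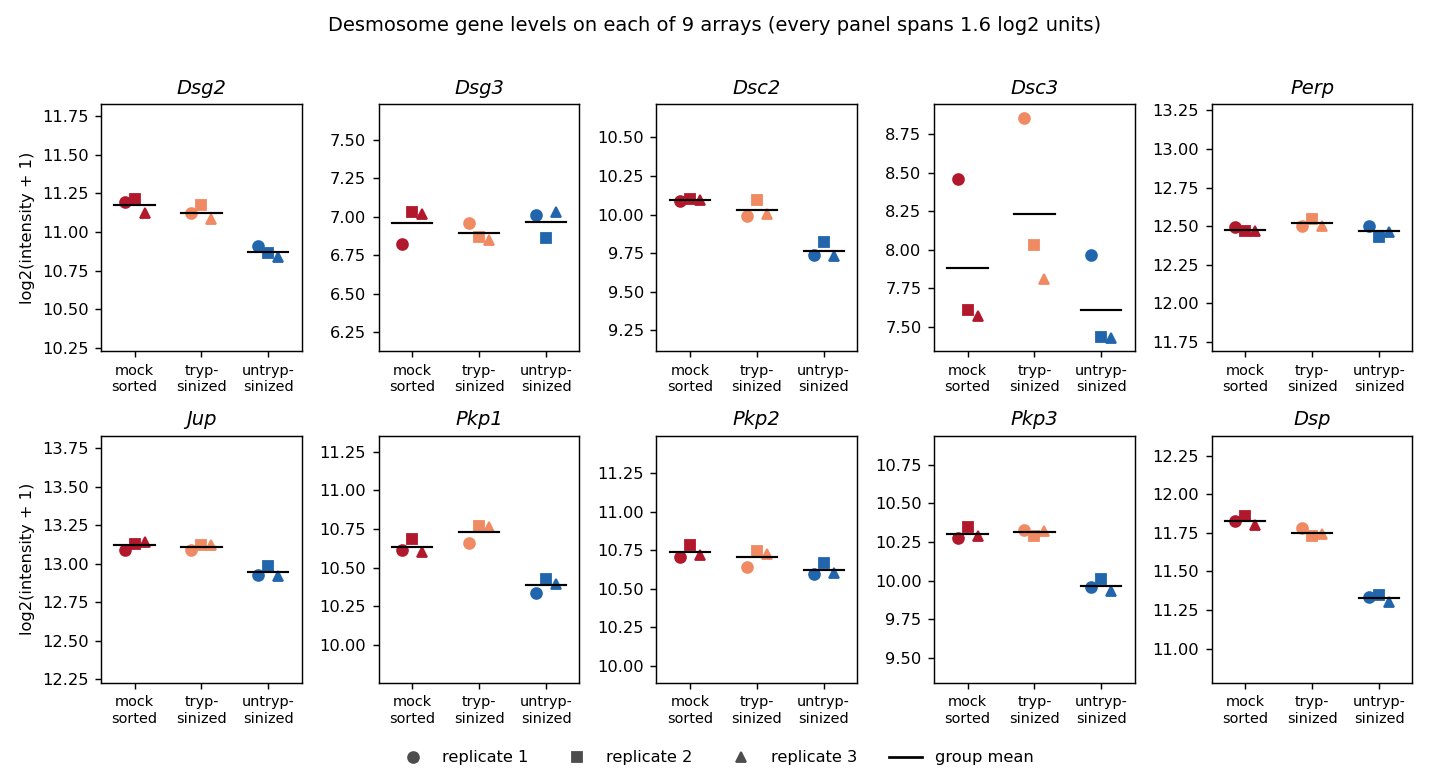
Log2(intensity + 1) of each desmosome gene (vertical axis, every panel spanning the same range) on the 9 arrays, with mock sorted cells left, trypsinized cells in the middle and untrypsinized cells right. Symbols give the replicate number and lines the group means; the untrypsinized points lie below all others for Dsg2, Dsc2, Jup, Pkp1, Pkp3 and Dsp, Pkp2 and Perp are nearly flat, and Dsc3 is highest in replicate 1 of each group.

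Of the cadherins, Dsg2 and Dsc2 are the broadly expressed pair found in simple as well as layered epithelia. Dsg2 had intensities of 2346, 2374 and 2226 on the mock sorted arrays, 2226, 2309 and 2167 on the trypsinized arrays and 1924, 1867 and 1833 on the untrypsinized arrays. Every untrypsinized array was below the others, while mock sorted and trypsinized arrays overlapped. Dsg2 rose by 0.25 (SE 0.04, adjusted p = 0.00496) in trypsinized over untrypsinized cells. Dsc2 had 1087, 1096 and 1093 on the mock sorted arrays, 1018, 1091 and 1024 on the trypsinized arrays and 855, 903 and 848 on the untrypsinized arrays. Again the untrypsinized arrays were the lowest. Dsc2 rose by 0.27 (SE 0.04, adjusted p = 0.00402) in trypsinized over untrypsinized cells.

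Dsg3 and Dsc3 are known mainly from the lower layers of stratified epithelia. Dsg3 had 112, 129.5 and 128 on the mock sorted arrays, 124, 116 and 114 on the trypsinized arrays and 128, 116 and 129.8 on the untrypsinized arrays. The groups overlapped fully. Its mean log2 intensity of 6.94 exceeded that of 62.2% of the olfactory receptor genes, so it was not clearly above the background of the arrays. Its change in trypsinized over untrypsinized cells was -0.07 (95% confidence interval -0.23 to 0.08, adjusted p = 0.451).

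Dsc3 was low and uneven, with a mean log2 intensity of 7.91, above 90.9% of the olfactory receptor genes. It had 350.4, 194 and 189.6 on the mock sorted arrays, 462, 261 and 224 on the trypsinized arrays and 249, 172 and 172 on the untrypsinized arrays. Replicate 1 was the highest of each group and the groups overlapped. The change in trypsinized over untrypsinized cells was the largest of any member, 0.62, but its SE was 0.32 and its 95% confidence interval ran from -0.12 to 1.37 (adjusted p = 0.190). In mock sorted over untrypsinized cells it was 0.27 (adjusted p = 0.533). Without the trypsinized and mock sorted arrays numbered 1, an alternative chosen after seeing the data, these changes were 0.31 (adjusted p = 0.247) and -0.02 (adjusted p = 0.937).

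The arrays with high Dsc3 were among those with high lymphocyte markers. Of all genes ranked, Fcrla, an Fc receptor-like gene of B lymphocytes, had the profile most like Dsc3 (Pearson r 0.99 over the 9 arrays, and 0.99 after the group means were removed). Over the 7 arrays left without the trypsinized and mock sorted arrays numbered 1, r was 0.95, and 0.93 within groups. The log2 intensity of Fcrla was 9.12, 7.49 and 7.49 on the mock sorted arrays, 9.57, 8.03 and 7.91 on the trypsinized arrays and 8.15, 7.01 and 7.34 on the untrypsinized arrays. Like Dsc3, it was highest in replicate 1 of each group. The median of the 11 lymphocyte markers was 10.27, 9.13 and 8.96 on the mock sorted arrays, 10.61, 9.12 and 9.08 on the trypsinized arrays and 8.17, 8.23 and 8.34 on the untrypsinized arrays. In the untrypsinized group the order was thus the other way round, with the highest Dsc3 on the array with the lowest marker median. The B cell receptor component Cd79a, named after its values were seen, was highest in replicate 1 of all 3 groups, at 10.25 on the mock sorted, 10.61 on the trypsinized and 9.11 on the untrypsinized array. The part of lymphocyte RNA in the Dsc3 values was not tested.

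**Figure D2:**
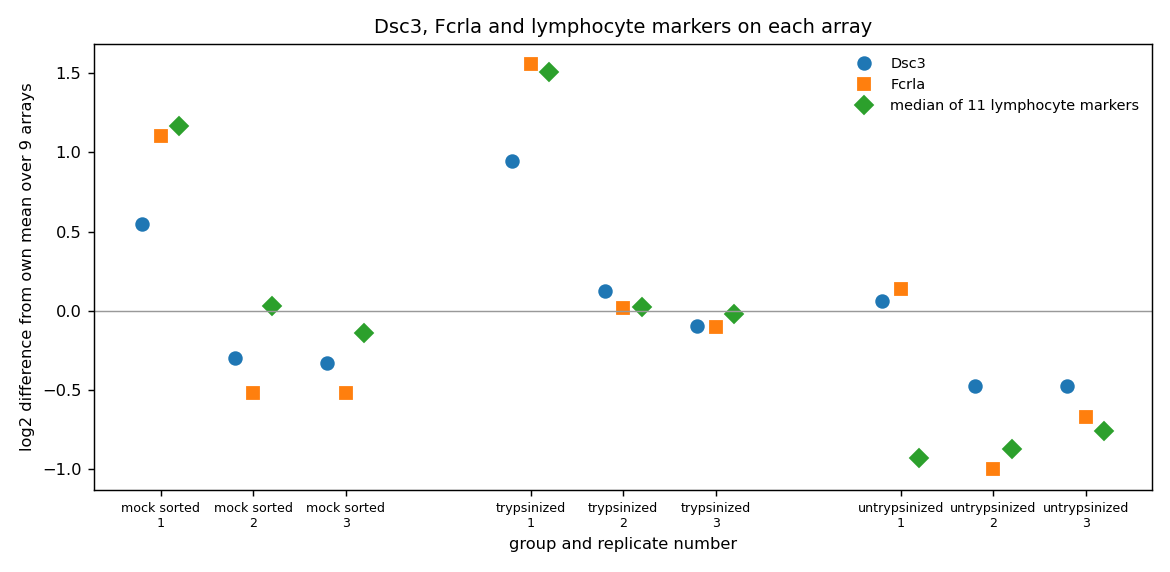
Difference in log2 intensity from its own mean over the 9 arrays (vertical axis) for Dsc3, Fcrla and the median of 11 lymphocyte markers, with 1 column of points per array, mock sorted arrays left, trypsinized in the middle and untrypsinized right. Dsc3 and Fcrla are highest in replicate 1 of every group, while the lymphocyte median is high in replicate 1 of the mock sorted and trypsinized groups and lowest in untrypsinized replicate 1.

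Among the armadillo proteins, plakoglobin (Jup) serves desmosomes and adherens junctions alike. Jup had 8710.1, 8958 and 9016 on the mock sorted arrays, 8701, 8920.1 and 8905 on the trypsinized arrays and 7786, 8107 and 7746 on the untrypsinized arrays. The untrypsinized arrays lay below the other 6, which overlapped among themselves. Its rise in trypsinized over untrypsinized cells was the smallest of the 6, at 0.17 (SE 0.03, adjusted p = 0.0117), or 1.12-fold.

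The plakophilins gather desmoplakin at the plaque. Pkp1, best known from the upper layers of stratified epithelia, had 1569.6, 1645 and 1553 on the mock sorted arrays, 1615, 1744 and 1735 on the trypsinized arrays and 1294, 1373 and 1343 on the untrypsinized arrays. It rose by 0.34 (SE 0.05, adjusted p = 0.00201) in trypsinized over untrypsinized cells, with no overlap of the groups. Pkp3, found in most epithelia, had 1239, 1299 and 1249 on the mock sorted arrays, 1286, 1248 and 1279.9 on the trypsinized arrays and 992, 1032 and 975 on the untrypsinized arrays. It rose by 0.35 (SE 0.04, adjusted p = 0.000961), again without overlap. Pkp2, the plakophilin of simple epithelia and heart muscle, had 1673, 1764 and 1685 on the mock sorted arrays, 1592, 1718 and 1695 on the trypsinized arrays and 1547, 1623 and 1557 on the untrypsinized arrays. The trypsinized and untrypsinized arrays of Pkp2 overlapped, and the difference was 0.08 (95% confidence interval -0.02 to 0.18, adjusted p = 0.195). In both Pkp1 and Pkp2 replicate 2 was the highest array of every group.

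Perp, which stabilises desmosomes and is a target of the epithelial factor p63, had 5773, 5655 and 5666 on the mock sorted arrays, 5806, 5984 and 5794 on the trypsinized arrays and 5803, 5520.4 and 5643 on the untrypsinized arrays. The values of trypsinized and untrypsinized cells overlapped. The difference was 0.05 (95% confidence interval -0.03 to 0.13, adjusted p = 0.297). A change in Perp as large as that of Dsp lies outside that interval.

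Setting mock sorted against trypsinized cells, the other contrast in the submitters' design, asked what the pass through the sorter adds. None of the 10 members passed the test in either direction with limma, and none had an unadjusted p of 0.05 or below. Among all genes, 0.466% rose, 4.20% fell and 1.19% passed with the minimum fold. The median change of the members was 0.02, against 0.00 over all genes. For 9 of the 10 members the 95% confidence interval lay within -0.20 to 0.22, so a change of 1.5-fold (0.58) lies outside it. The exception was Dsc3, at -0.35 (SE 0.32) with an interval of -1.10 to 0.39. It was lower on the mock sorted array of all 3 same-numbered pairs, with differences of -0.40, -0.42 and -0.24. With the replicate number as a block its SE was 0.09 (adjusted p = 0.108), and 0.05 (adjusted p = 0.0501) in a fit of those 6 arrays alone. The lowest change of those 9 was that of Pkp1, -0.10 (95% confidence interval -0.20 to 0.01, adjusted p = 0.341). Every mock sorted array of Perp was below every trypsinized one, yet the difference was only -0.04 (95% confidence interval -0.12 to 0.04, adjusted p = 0.623).

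Mock sorted cells were also set against untrypsinized cells, a comparison that covers both steps and is not in the design text. It shares the untrypsinized arrays with the first comparison, so its values stand beside the first set and are no independent repeat. Dsg2, Dsc2, Jup, Pkp1, Pkp3 and Dsp rose and none fell, which is 6 of 10, where 21.0% of all genes rose and 18.0% fell. None reached 1.5-fold, as 4.47% of all genes did while passing the test. The median change was 0.26 over the members and 0.05 over all genes. The rise was 0.30 for Dsg2 (SE 0.04, adjusted p = 0.000919), 0.33 for Dsc2 (SE 0.04, adjusted p = 0.000567) and 0.34 for Pkp3 (SE 0.04, adjusted p = 0.000311). It was 0.25 for Pkp1 (SE 0.05, adjusted p = 0.00360) and 0.17 for Jup (SE 0.03, adjusted p = 0.00548). Pkp2 was higher on each mock sorted array than on any untrypsinized one, by 0.12 (SE 0.04), but missed the threshold (adjusted p = 0.0652, unadjusted p = 0.0278). Perp and Dsg3 differed by 0.01 and -0.01. A moderated F test over the 3 groups found differences in the 6 genes above and in 33.2% of all genes.

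**Figure D3:**
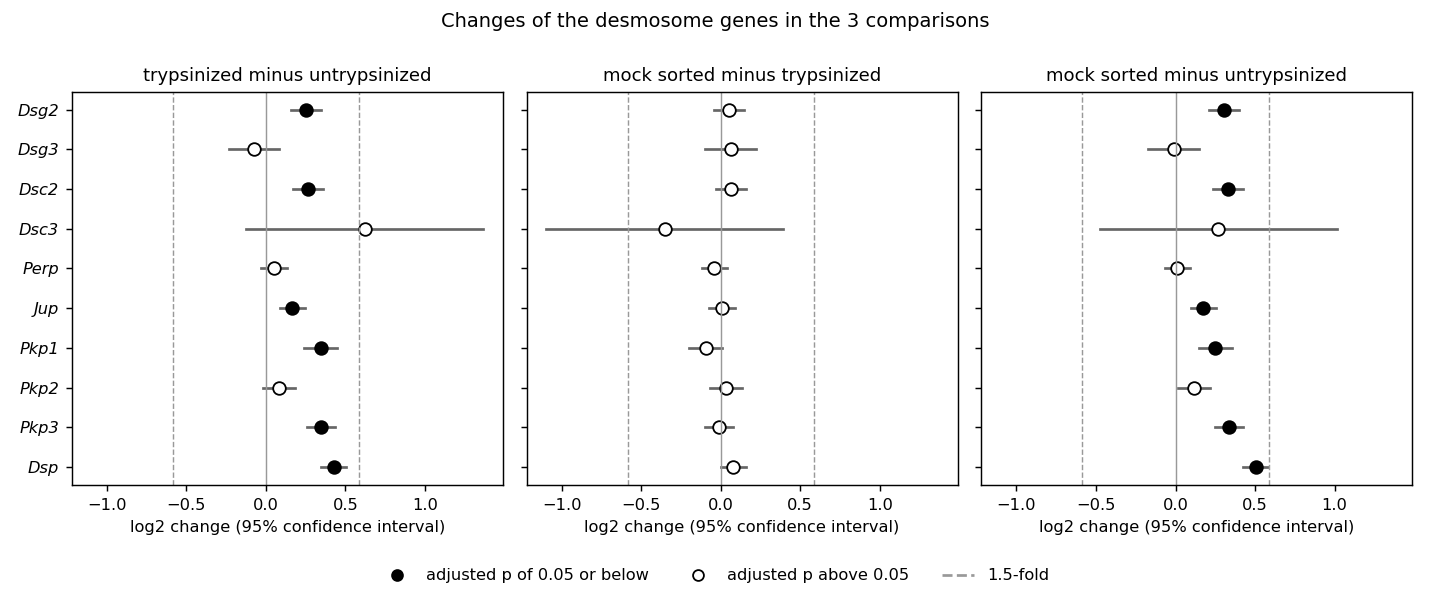
Log2 change (horizontal axis) of the 10 desmosome genes in the 3 comparisons, with 95% confidence intervals as bars, filled points where the adjusted p is at most 0.05, and dashed lines at 1.5-fold. Filled points for Dsg2, Dsc2, Jup, Pkp1, Pkp3 and Dsp lie right of 0 and left of the 1.5-fold line in both comparisons with untrypsinized cells, and no point is filled for mock sorted minus trypsinized cells.

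How the arrays are scaled decides part of these calls. When every array was set to the same median over all 35512 rows, the median change of all genes moved to -0.09 in trypsinized over untrypsinized cells, against 0.04 as deposited, and the all-gene calls became 745 higher and 5664 lower, against 2766 and 2289. By quantile normalization over all rows, 1602 were higher and 3370 lower. Under the common median Dsp (0.29, adjusted p = 0.00312), Pkp1 (0.21, adjusted p = 0.0226) and Pkp3 (0.21, adjusted p = 0.0133) still rose. Dsc2 (0.13, adjusted p = 0.114), Dsg2 (0.12, adjusted p = 0.177) and Jup (0.03, adjusted p = 0.675) no longer passed, and the small differences of Pkp2 and Perp turned to -0.05 and -0.08. This scaling adds 1 constant to each array, so by construction the distance of the median member (0.22) and of Dsp (0.39) to the median of all genes is the same in both.

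In mock sorted over untrypsinized cells the common median gave 1233 genes higher and 6793 lower, against 4189 and 3588 as deposited, and quantile normalization over all rows 2569 and 4527. Dsp (0.35, adjusted p = 0.000540), Pkp3 (0.19, adjusted p = 0.0173) and Dsc2 (0.18, adjusted p = 0.0331) rose under the common median. Dsg2 (0.15, adjusted p = 0.0758), Pkp1 (0.10, adjusted p = 0.204) and Jup (0.03, adjusted p = 0.733) did not. Dsp and Pkp3 were thus the members that rose under all 4 scalings in both comparisons with untrypsinized cells, Pkp1 in trypsinized cells alone and Dsc2 in mock sorted cells alone, with no test of the difference between the comparisons. Under quantile normalization over all rows the 6 genes rose in both, and the dim Dsg3 fell by 0.25 in each (adjusted p = 0.0464 and 0.0328).

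**Figure D4:**
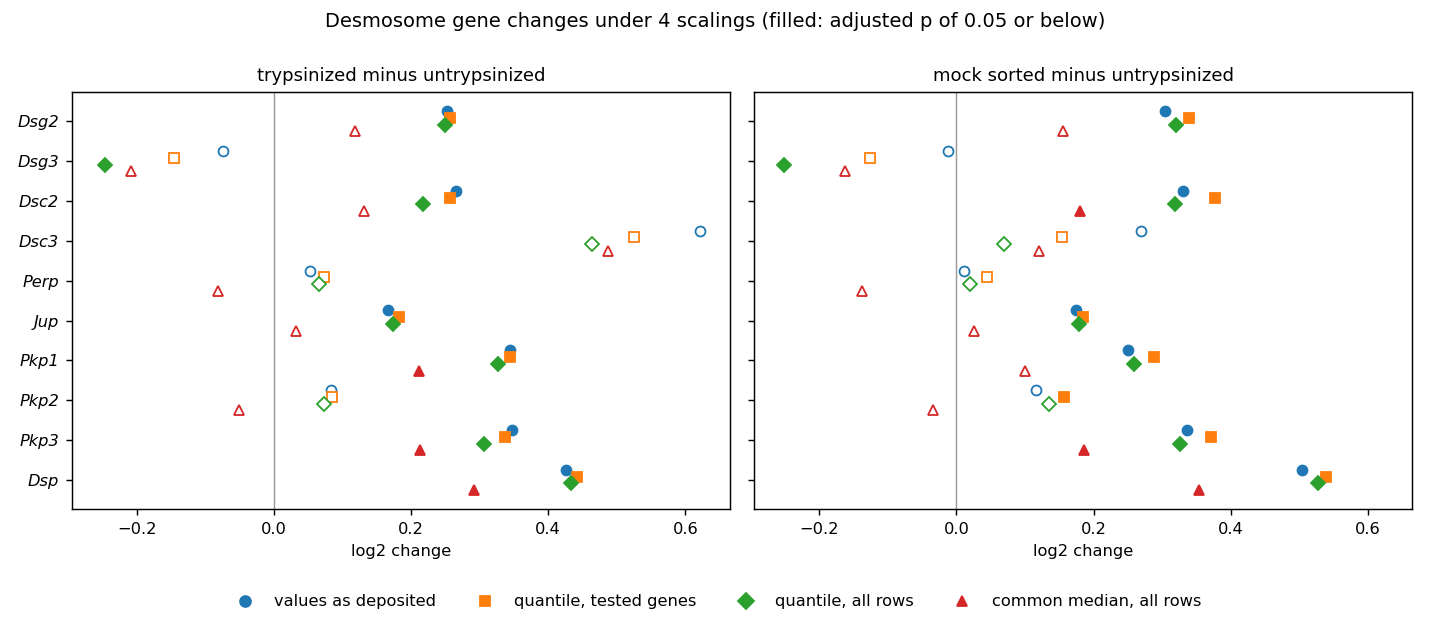
Log2 change (horizontal axis) of each desmosome gene under 4 scalings of the arrays, marked by symbol, for trypsinized minus untrypsinized (left) and mock sorted minus untrypsinized cells (right), filled where the adjusted p is at most 0.05. The common median (triangles) shifts every gene left of its value as deposited, by the same amount within a panel, and Dsp and Pkp3 are filled under every scaling in both panels.

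Genes that work beside the desmosome were described from lists, which share no gene with the 10 members. The plakins Ppl (periplakin), Evpl (envoplakin) and Plec (plectin), which like desmoplakin link junctions to keratin, rose by 0.47 (SE 0.04, adjusted p = 0.000528), 0.40 (SE 0.05, adjusted p = 0.00126) and 0.41 (SE 0.05, adjusted p = 0.00166) in trypsinized over untrypsinized cells. They rose by 0.55, 0.44 and 0.48 in mock sorted over untrypsinized cells, and they passed under all 4 scalings in both. They were the only 3 of the 12 measured plakin, Pkp4 and keratin genes to rise in the trypsinized over untrypsinized comparison, and none fell. Mock sorted over untrypsinized cells had 4 of the 12 higher and 1 lower. The one that fell was Pkp4, an armadillo protein related to the plakophilins, at -0.25 (SE 0.04, adjusted p = 0.00116). None of the keratins on this list passed in trypsinized over untrypsinized cells. Of the 6 other desmosomal cadherin and corneodesmosin genes listed, 4 were measured and none passed in any comparison of the values as deposited. Only 2 of the 4 had a mean above the median of the olfactory receptor genes. Dsg1c and Dsg4 did not, so they tell little. In mock sorted over untrypsinized cells 1 of the 4 fell under the common median and 1 under quantile normalization over all rows. Quantile normalization over the tested genes gave 1 higher and 1 lower there.

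The adherens junction is the neighbouring cadherin junction that holds actin. Of its 12 genes listed and measured, 3 rose and 1 fell in trypsinized over untrypsinized cells. E-cadherin (Cdh1) rose by 0.23 (SE 0.03, adjusted p = 0.00275), the actin-linked scaffold Shroom3 by 0.21 (adjusted p = 0.0188) and afadin (Afdn) by 0.20 (adjusted p = 0.0144). The median of the list was 0.04, the same as over all genes. Under the common median none of the 12 rose and 3 fell. The mock sorted over untrypsinized comparison had 4 higher and 2 lower. Of 7 measured genes of the hemidesmosome, which ties cells to the basement membrane, 2 rose and 1 fell in trypsinized over untrypsinized cells. These were the plakin Dst (0.21, adjusted p = 0.0106), the integrin Itgb4 (0.13, adjusted p = 0.0348) and the tetraspanin Cd151 (-0.14, adjusted p = 0.0145). Of the same 7, 2 rose and 2 fell in mock sorted over untrypsinized cells. Under the common median none rose and 1 fell in trypsinized, and 1 rose and 5 fell in mock sorted over untrypsinized cells.

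Transcription factors known to act on epithelial junction genes went both ways, with 4 of 14 higher and 3 lower in trypsinized over untrypsinized cells, and 7 higher and 6 lower in mock sorted over untrypsinized cells. Ovol1, a factor that favours the epithelial state, rose by 0.44 (SE 0.05, adjusted p = 0.00126) and 0.53 (adjusted p = 0.000152) and passed under all 4 scalings. Zeb2, Twist1 and Snai1, repressors of epithelial genes that are also expressed in stromal cells, fell by 0.70, 0.65 and 0.26 in trypsinized over untrypsinized cells (adjusted p = 0.00341, 0.00126 and 0.0383). They fell by 1.46, 0.87 and 0.71 in mock sorted over untrypsinized cells. Zeb2 (-0.76, adjusted p = 0.00450) and Snai1 (-0.45, adjusted p = 0.0109) also fell in mock sorted over trypsinized cells. The part of these factors in the desmosome changes was not tested.

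**Figure D5:**
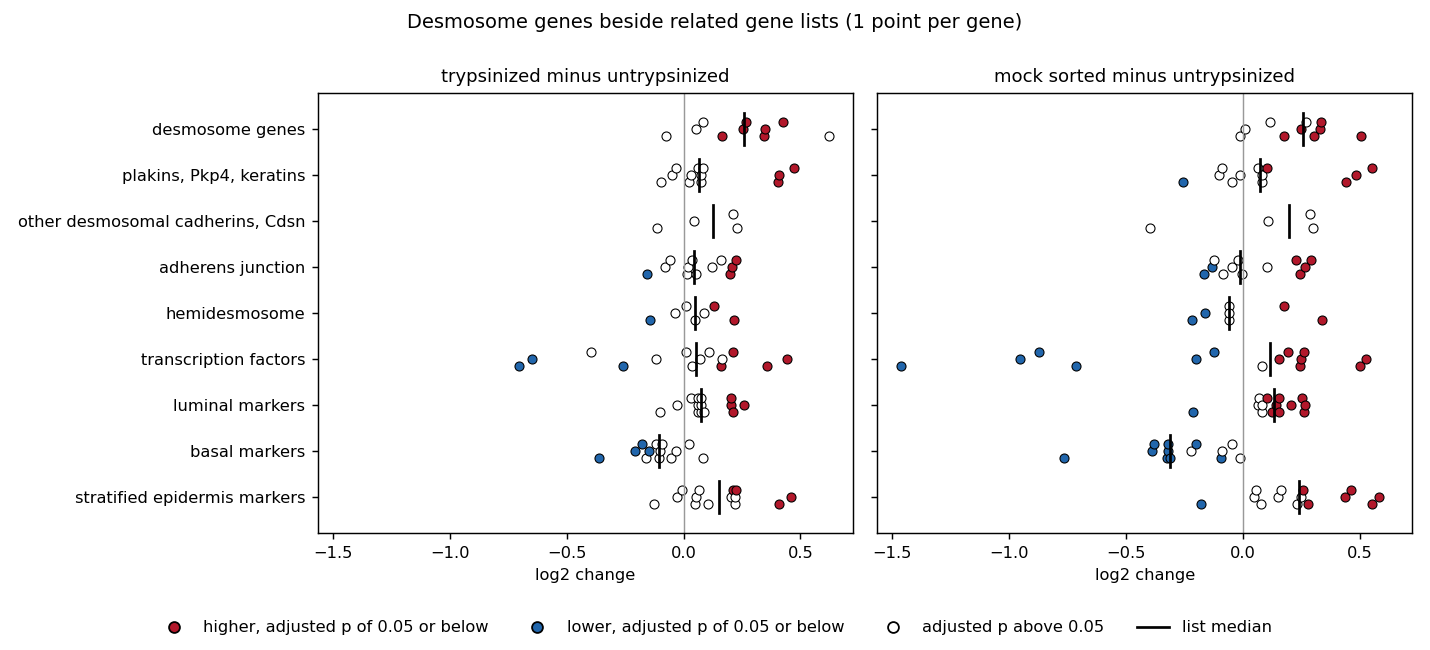
Log2 change (horizontal axis) of every measured gene of the desmosome genes and of 8 related lists, for trypsinized minus untrypsinized (left) and mock sorted minus untrypsinized cells (right), with red for higher and blue for lower where the adjusted p is at most 0.05, and a bar at each list's median. The desmosome genes have a median of 0.26 in both panels, basal markers lie mostly below 0, and repressors among the transcription factors reach the lowest values.

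Markers of both mammary epithelial layers were described too. The median of the 14 luminal markers in trypsinized over untrypsinized cells was 0.07, against 0.04 over all genes. In that comparison none fell, 10 did not pass and 4 rose, among them the claudin Cldn4 (0.21, adjusted p = 0.00344), the mucin Muc1 (0.26, adjusted p = 0.00440) and the receptor Kit (0.20, adjusted p = 0.00596). In mock sorted over untrypsinized cells 9 rose and 1 fell. Under the common median none rose in either comparison, and 2 and 1 fell. The summed log2 intensity of the list was 16.72 to 16.73 on the mock sorted, 16.67 to 16.69 on the trypsinized and 16.58 to 16.62 on the untrypsinized arrays. Of 13 basal markers, 4 fell in trypsinized and 9 in mock sorted over untrypsinized cells, led by the contractile genes Mylk (-0.36, adjusted p = 0.00187), Tagln (-0.21, adjusted p = 0.00573) and Myh11 (-0.15, adjusted p = 0.0145) in trypsinized over untrypsinized cells. The common median put 9 lower in trypsinized and 12 lower in mock sorted over untrypsinized cells. Their summed log2 intensity was at most 16.02 on the mock sorted, 16.13 to 16.15 on the trypsinized and 16.21 to 16.24 on the untrypsinized arrays. The desmosome genes summed to 14.69 to 14.71 on the mock sorted, 14.69 to 14.71 on the trypsinized and 14.47 to 14.51 on the untrypsinized arrays.

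Of 14 measured markers of stratified epidermis and hair follicle, 7 had a mean above the 90th percentile of the olfactory receptor genes. In trypsinized over untrypsinized cells 4 rose and none fell, with Krt6a (0.46, SE 0.04, adjusted p = 0.000263), Krt16 (0.41, SE 0.11, adjusted p = 0.0318), both keratins of activated epidermis, and the envelope protein Sprr1a (0.22, SE 0.05, adjusted p = 0.0200) among them. In mock sorted over untrypsinized cells 6 rose and 1 fell. Krt6a passed under all 4 scalings, while under quantile normalization over all rows 2 of the list rose in trypsinized and 3 in mock sorted over untrypsinized cells. Under the common median 1 rose and 1 fell in trypsinized, and 3 rose and 1 fell in mock sorted over untrypsinized cells. The summed log2 intensity was 14.10 to 14.17 on the mock sorted, 13.97 to 14.02 on the trypsinized and 13.67 to 13.79 on the untrypsinized arrays.

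Endothelial markers went the other way, with 9 of 10 lower in trypsinized over untrypsinized cells and all 10 lower in both comparisons of mock sorted cells. Their summed log2 intensity was 13.32 to 13.61 on the mock sorted, 14.49 to 14.52 on the trypsinized and 14.86 to 15.06 on the untrypsinized arrays. The median endothelial change in mock sorted over trypsinized cells was -1.08, while the desmosome genes had a median change of 0.02 there. Of 10 fibroblast markers 5 fell in trypsinized and 9 in mock sorted over untrypsinized cells, and all 10 fell in both under the common median. Their summed log2 intensity was 14.90 to 15.02 on the mock sorted, 15.01 to 15.14 on the trypsinized and 15.20 to 15.37 on the untrypsinized arrays. Of 11 lymphocyte markers 3 rose in trypsinized and 4 in mock sorted over untrypsinized cells, with a summed log2 intensity of 12.61 to 13.93 on the mock sorted, 12.81 to 14.13 on the trypsinized and 12.02 to 12.08 on the untrypsinized arrays. Without the trypsinized and mock sorted arrays numbered 1, 7 of the 11 rose in each, with 12.61 and 12.70 on the mock sorted arrays left and 12.81 and 12.84 on the trypsinized ones. The calls among desmosome genes were then 6 higher and none lower in both comparisons with untrypsinized cells. Schwann cell markers had 4 of 5 measured lower in each of the 3 comparisons and 1 higher in both with untrypsinized cells. Their summed log2 intensity was 13.02 to 13.08 on the mock sorted, 13.45 to 13.49 on the trypsinized and 13.98 to 14.10 on the untrypsinized arrays. Of 8 adipocyte markers 4 fell in trypsinized and 5 in mock sorted over untrypsinized cells, and 3 fell in mock sorted over trypsinized cells. They summed to 12.28 to 12.48 on the mock sorted, 13.27 to 13.34 on the trypsinized and 13.62 to 13.85 on the untrypsinized arrays. Of 10 muscle markers 4 fell in trypsinized over untrypsinized cells, and 4 fell and 1 rose in mock sorted over untrypsinized cells. Of 10 myeloid markers 1 rose and 1 fell, and 1 rose and 4 fell, in the same comparisons. None of the Schwann or muscle markers rose under the common median, and there 3 myeloid markers fell in trypsinized and 6 in mock sorted over untrypsinized cells. The part of cell composition in the desmosome changes was not tested.

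The genes whose profiles were most like the mean of the 10 members, by Pearson r over the 9 arrays among 17065 genes ranked, were Morc2a (0.99), Polr2a, Oser1, Acin1 and Zfp715 (0.98 each). These correlations mostly reflect the step between untrypsinized and other arrays, since the points share their groups. After the group means were removed r was 0.95 for Morc2a, 0.80 for Polr2a, 0.84 for Oser1 and 0.73 for Acin1 and Zfp715. Members were not scaled to equal spread before averaging, so the uneven Dsc3 counts most in the mean within groups. Dsc3 ranged over 1.42 log2 units across the arrays, and the others over at most 0.56. Like Dsc3, the mean fell from replicate 1 to replicate 3 in every group. Polr2a, the largest subunit of RNA polymerase II, had a change of 0.40 in trypsinized over untrypsinized cells and -0.04 in mock sorted over trypsinized cells. By the same measure the gene most like Dsp was Rab11fip1, a partner of the recycling GTPase Rab11 (r 0.99, but 0.51 within groups). The closest to Jup was the growth factor Vegfa (r 0.99, and 0.96 within groups), the closest to Pkp1 was the receptor Kit (r 0.99, 0.86 within groups), and the closest to Pkp2 was Galnt3 (r 0.97, 0.96 within groups), an enzyme that starts mucin-type sugar chains. Dsc2 was matched best by Chrnb1 (r 0.99, 0.82 within groups), Dsg2 by Irgq (r 0.98, 0.79 within groups) and Pkp3 by Ptpn23 (r 0.99, 0.82 within groups). Perp was matched best by Zyg11a (r 0.94, 0.95 within groups) and the dim Dsg3 by Serpina4-ps1 (r 0.93, 0.94 within groups).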

How the data were processed

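RNA was measured on 9 arrays in 3 groups, assigned from the labels' titles. The values deposited by the authors are linear intensities, 1 per row and array. The submitters' processing notes name limma, and how background was corrected, probes summarised and arrays scaled is not given in the sources used here, so a global shift between groups cannot be checked. Rows were named through the platform annotation, with 21789 of 35512 rows having 1 gene symbol, 1621 several and 12102 unnamed here. Of the rows with 1 symbol, 21698 took the RefSeq symbol of their gene number, whether or not it differed. The row with the highest mean stood for each gene (999 of 19938 genes had several rows). Models were fitted with limma 3.58.1 (R 4.3.3) on log2(intensity + 1), a mean per group over all 9 arrays, empirical Bayes moderation and Benjamini-Hochberg adjustment. The pseudocount of 1 slightly understates changes of dim genes. The design text gives 0.05 and 1.5-fold without saying whether p was adjusted. The model was tested on simulated data.

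The members and lists were chosen with earlier results of these data known. All 10 members are named, with up to 4 genes of each list by smallest F test p, the 5 genes most like the members' mean and the 1 most like each member. Keratins, Cd79a and the overlap with non-epithelial lists are described outside that rule. Of the plakin, Pkp4 and keratin list, 7 of 12 genes also stand in the luminal or basal list.

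The groups share replicate numbers 1 to 3. Between arrays of the same number, deviations from group means correlated over genes at 0.53, 0.29 and 0.29 for mock sorted with trypsinized arrays, which were taken as paired from the values, not from the labels. The rule asked for all same-number correlations above 0.1. Between different numbers of these 2 groups they ran from -0.36 to 0.16, with the positive ones between replicates 2 and 3. Same-number deviations correlated at 0.11, 0.04 and -0.04 for trypsinized with untrypsinized arrays and at 0.32, 0.18 and 0.06 for mock sorted with untrypsinized arrays, which were not taken as paired. The main fit has no block in any comparison. In all, 22 alternatives were tried for threshold, scaling, dim genes, pseudocount, rows per gene, variance model, array weights, arrays in the fit, replicate block and left-out arrays. No batch is labelled.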

Additional observations from a re-analysis of the deposited data

How the results depend on the processing

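The 6 desmosome genes that rose against untrypsinized cells kept their calls when any 1 array was left out (highest adjusted p 0.0433, Jup in trypsinized over untrypsinized cells). Setting a common median over all rows left 3 of 10 members higher in trypsinized over untrypsinized cells (median change 0.12) and 3 in mock sorted over untrypsinized cells (median 0.11). In the F test 3 members then passed, against 6 as deposited, where 33.2% of all genes passed. The share of all genes in that test under the common median is not given here. This scaling gave 745 genes higher and 5664 lower, 1233 higher and 6793 lower, and 54 higher in mock sorted over trypsinized cells. Quantile normalization over all rows put 1 member, Dsg3, lower in each comparison with untrypsinized cells, and gave 1602 and 2569 genes higher. The scaling the submitters used is not given, so the cause was not tested. An unadjusted p gave 4514 genes higher in trypsinized over untrypsinized cells, and 1153 higher and 2276 lower in mock sorted over trypsinized cells. In that last comparison quantile normalization over the tested genes gave 178 higher, a robust variance trend 235 and array weights 256. Array weights also gave a median of 0.22 for mock sorted over untrypsinized cells.

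With the replicate number as a block, 1 member, Dsc3, passed with 1.5-fold in trypsinized over untrypsinized cells (adjusted p = 0.00840). Its adjusted p was 0.0482 with only the 6 arrays compared. Pkp2 passed in mock sorted over untrypsinized cells with the block (adjusted p = 0.0432, but 0.0772 with only the 6 arrays compared). The shares of all genes passing in the blocked fit of all arrays are not given here. Whether these added calls exceed those shares therefore cannot be told. The 6-array blocked fit called 615 genes higher and 680 lower in the first comparison, where Dsg2 (adjusted p = 0.0561) and Jup (adjusted p = 0.0952) missed the threshold, and 47 higher in mock sorted over trypsinized cells. Only mock sorted and trypsinized arrays were taken as paired by number, from the values, and there the block changed no member's call.

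Leaving out each single array in turn gave 1559 to 2710 genes higher and 1414 to 2181 lower in trypsinized over untrypsinized cells. In mock sorted over trypsinized cells 25 to 110 were higher and 517 to 782 lower. In mock sorted over untrypsinized cells 2765 to 4124 were higher, with a member median there of 0.22 to 0.30. Without the trypsinized and mock sorted arrays numbered 1, chosen after seeing the data, 1705 genes were higher and 1427 lower in trypsinized over untrypsinized cells, and 44 higher and 551 lower in mock sorted over trypsinized cells, with the members' counts unchanged.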
